A study of Mus musculus with 72 samples.

Results

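The genes described here are 10 mRNAs that mark neutrophils, the short-lived granulocytes that bone marrow releases into blood in large numbers. They comprise the calprotectin subunits S100a8 and S100a9, the primary granule enzymes Mpo and Elane, the secondary granule proteins Camp, Ngp and Ltf, the granule metalloproteinases Mmp8 and Mmp9, and Retnlg, a resistin-like secreted protein. They were chosen by name, and a probe was taken as a member where its transcript accession maps to 1 of these symbols. This gave 11 of the 56605 probes on the mRNA array. Mmp9 had 2 probes and each other gene had 1, and the brighter Mmp9 probe over all arrays stood for the gene. RefSeq named 23787 genes on the array.

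RNA came from 18 female C57BL/6 J mice, 6 to 8 weeks old, that received X-rays over the whole body at 0, 1, 2, 4, 8 or 12 Gy in a single exposure. There were 3 mice per dose, and the 0 Gy mice were handled alike and sham irradiated. Liver and lung were taken 48 h later and hybridised to Agilent arrays of 1 colour, of which 36 measured mRNA and 36 miRNA, with the mouse numbers 1, 11 and 21 at 0 Gy, 2, 12 and 22 at 1 Gy, 3, 13 and 23 at 2 Gy, 4, 14 and 24 at 4 Gy, 5, 15 and 25 at 8 Gy, and 6, 16 and 26 at 12 Gy in both tissues. Each array was 1 tissue sample of 1 mouse, so that p values measure the spread between mice and the handling of their samples together. The labels give each sample a number, shared by both tissues, and do not say that it names 1 animal.

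A developing neutrophil fills its granules in waves. The promyelocyte makes the primary granule enzymes, the myelocyte makes the secondary granule proteins, and the gelatinase and calprotectin follow at later stages. Mature cells have largely stopped transcribing the primary and secondary granule genes while they keep abundant S100a8 and S100a9 mRNA. Whole tissue was measured and no cells were sorted. A lower mRNA level from fewer cells and a lower level from less RNA per cell cannot be told apart here.

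Expression of granule genes in the myeloid lineage is driven by C/EBP factors and PU.1. The promoters of Camp, Ngp and Mpo are shown because these genes went down with dose in lung, and that of S100a8 because it did not pass the same test. The sequences run from 250 bases before to 50 bases after the RefSeq start of the gene, 5′ to 3′ on the strand of the gene, from GRCm38.p6. Capitals mark a C/EBP core motif (TTGCNNAA, searched on both strands) or a PU.1 core motif (GAGGAA, searched on both strands), and the matches do not overlap.
Camp, chr9:109849407-109849706, minus strand: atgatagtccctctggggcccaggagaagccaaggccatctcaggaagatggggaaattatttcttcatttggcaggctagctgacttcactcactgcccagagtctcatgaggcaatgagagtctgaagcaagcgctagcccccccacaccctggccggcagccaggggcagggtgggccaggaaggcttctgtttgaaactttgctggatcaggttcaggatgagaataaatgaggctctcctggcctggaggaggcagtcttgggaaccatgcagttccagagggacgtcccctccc
Ngp, chr9:110419558-110419857, plus strand: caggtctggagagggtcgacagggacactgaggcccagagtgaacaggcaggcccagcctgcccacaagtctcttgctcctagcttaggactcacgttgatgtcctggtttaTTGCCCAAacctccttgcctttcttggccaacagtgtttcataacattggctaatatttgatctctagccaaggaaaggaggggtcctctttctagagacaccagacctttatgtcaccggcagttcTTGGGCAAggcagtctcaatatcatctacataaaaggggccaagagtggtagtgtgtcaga
Mpo, chr11:87793534-87793833, plus strand: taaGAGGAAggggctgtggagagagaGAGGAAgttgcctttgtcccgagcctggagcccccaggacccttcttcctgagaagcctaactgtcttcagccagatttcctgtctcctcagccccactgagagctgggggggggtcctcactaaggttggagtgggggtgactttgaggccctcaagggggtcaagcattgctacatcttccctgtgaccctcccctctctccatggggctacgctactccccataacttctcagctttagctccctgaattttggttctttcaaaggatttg
S100a8, chr3:90668821-90669120, plus strand: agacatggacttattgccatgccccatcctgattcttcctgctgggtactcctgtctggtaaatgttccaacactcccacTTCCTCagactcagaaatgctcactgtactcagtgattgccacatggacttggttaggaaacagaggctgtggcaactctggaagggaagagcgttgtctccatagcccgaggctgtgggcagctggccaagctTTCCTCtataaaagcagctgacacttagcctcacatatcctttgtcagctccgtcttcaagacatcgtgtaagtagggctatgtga
The Ngp window held 2 C/EBP core matches, at bases −138 and −11 from the start. The Mpo window held 2 PU.1 core matches at −247 and −224, and the S100a8 window held 2 at −170 and −36. The Camp window held neither run of letters. Of the 9 members with a promoter entry, 5 held the C/EBP core (Ltf, Mmp8, Ngp, Retnlg and S100a9) against 10.8% of all 32851 promoters of this length. The PU.1 core was in 5 (Elane, Ltf, Mmp8, Mpo and S100a8) against 28.3%. These are letter matches, not measured binding sites.

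All levels below are log2 normalised intensities. Arrays of a tissue were normalised together, so a level in liver is not set against one in lung except where stated. A probe was called changed where its absolute log2 change was above 1 and its limma Benjamini-Hochberg adjusted p, taken over every probe tested in that comparison, was below 0.05. The dose trend is the fitted slope given as the log2 change over 12 Gy. A value is marked as below background where the scanner software did not find the spot well above it.

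Between 46.1% and 54.0% of spots on a liver array and between 54.1% and 64.0% on a lung array were well above background, and no member spot was saturated. The tissue labels were checked, since the design text of the series names another organ. The summed linear level of 7 hepatocyte markers was 1934000 to 2111000 in liver arrays at 0 and 12 Gy against 3055 to 7745 in lung, and that of 5 lung epithelium markers was 884200 to 1058000 in lung against 206.4 to 3194 in liver. Over all lung arrays the hepatocyte sum ran from 867.8 to 65010, the highest being that of the 4 Gy mouse 24, followed by 13220 in the 2 Gy mouse 3. The arrays sat on 5 slides that follow dose. The lung arrays at 0 and 1 Gy were on slide 3, those at 2 and 4 Gy and of the 8 Gy mice 5 and 15 on slide 4, and those of the 8 Gy mouse 25 and the 12 Gy mice on slide 5. The liver arrays at 0 and 1 Gy and of the 2 Gy mice 3 and 13 were on slide 1, those of the 2 Gy mouse 23, of the 4 and 8 Gy mice and of the 12 Gy mouse 6 on slide 2, and those of the 12 Gy mice 16 and 26 on slide 3. No slide held lung arrays at 0 Gy together with any dose above 1 Gy, or liver arrays at 0 Gy together with any dose above 2 Gy. For lung, dose and slide cannot be told apart at these doses. In liver a slide term could be fitted, through the 2 Gy and 12 Gy arrays that span slides, and within-slide values are given beside the results.

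Most members were brighter and measured on more arrays in lung than in liver. In lung, S100a8, S100a9, Elane, Ltf, Mmp8, Mmp9 and Retnlg were well above background on 18 of 18 arrays, Camp on 16, Mpo on 11 and Ngp on 7. In the liver only S100a8, S100a9 and Elane reached 18 of 18, Camp reached 9, Mmp9 6, Mpo 3, Retnlg 3, Ltf 2, Mmp8 1 and Ngp 1. With all 36 mRNA arrays normalised together, 6 of 10 members were called between the unirradiated tissues, 5 higher and 1 lower in lung. Of all probes tested 18.3% were called higher and 17.3% lower in lung.

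S100a9, which pairs with S100a8 to form the calcium- and zinc-binding protein calprotectin, averaged 13.30 in lung and 9.35 in liver at 0 Gy, a 15.5-fold difference (log2 3.96, SE 0.29, limma adjusted p = 2.5e-12). For S100a8 the means were 11.45 and 7.63, 14.1-fold apart (log2 3.82, SE 0.34, limma adjusted p = 1.39e-10). Retnlg, at 7.73 in lung, was not well above background on any liver array at 0 Gy, and its fitted difference was 7.41-fold (limma adjusted p = 2.04e-08). Mmp8, the neutrophil collagenase, was likewise dim in liver, with a fitted difference of 5.55-fold (limma adjusted p = 2.41e-05). With a normexp offset of 50 the log2 difference was 1.75 for Retnlg and 1.53 for Mmp8, and with the deposited series values it was 4.40 and 3.65, so that the size of both depended on how dim spots were treated. All 4 genes were thus brighter in unirradiated lung.

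Ltf, the iron-binding lactoferrin, had a mean of 12.81 in lung against 5.19 in liver, where 1 of the 3 arrays was above background (log2 7.62, SE 0.86, limma adjusted p = 1.08e-08). With 2 of the liver arrays below background the size of this difference is loosely set, and it was 6.33 with a normexp offset of 50 and 8.83 with the deposited series values. Lactoferrin is also a product of airway glands and epithelium. In the liver arrays Ltf was above background in the 0 Gy mouse 11 (5.54) and the 12 Gy mouse 16 (7.01), and the 16 others were at or under 4.63, down to 0.06 in the 2 Gy mouse 23. The 5 lung epithelium markers summed to 3194 in the liver array of mouse 16 and to 786.1 in that of mouse 11, to 2462 in that of the 0 Gy mouse 1, where Ltf was 4.22 and below background, and to between 163.4 and 352.8 in the other 15. Their part in the Ltf signal was not tested.

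Elane, the primary granule elastase, was the member that went the other way, at 7.33 in lung and 8.78 in liver at 0 Gy in the joint normalisation (2.72-fold lower in lung, log2 −1.44, SE 0.19, limma adjusted p = 1.87e-07). Its probe was well above background on all 18 liver arrays, while its highest correlation with another member over the lung arrays was 0.34, and whether the probe reads Elane alone was not tested. Camp, Mmp9, Mpo and Ngp were not called between the tissues. Camp averaged 8.12 and 6.83 (limma adjusted p = 0.07), and Mpo 5.57 and 5.48 (limma adjusted p = 0.871). The lung arrays at 0 Gy were on another slide than the liver arrays at 0 Gy, so tissue and slide cannot be told apart in this comparison.

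In lung, a call at any dose against 0 Gy was made for 3 of the 10 members, Camp and Mpo lower and Mmp8 higher, where 7.80% of all lung probes tested were called. On the dose trend Camp, Mpo and Ngp were called falling, 3 of 10 against 4.35% of all probes, and no member was called rising. The members' median trend was −0.30, beside 0.08 over all probes. Camp and Ngp of the secondary granule and Mpo of the primary granule thus went down with dose, while Ltf, Elane, calprotectin, Retnlg and the metalloproteinases were not called falling. Of the members, only Camp stayed called on the trend with a normexp offset of 50. Whether the Ltf and Elane probes read neutrophils in lung was not tested, so no split within a granule class can be read from them.

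**Figure D1:**
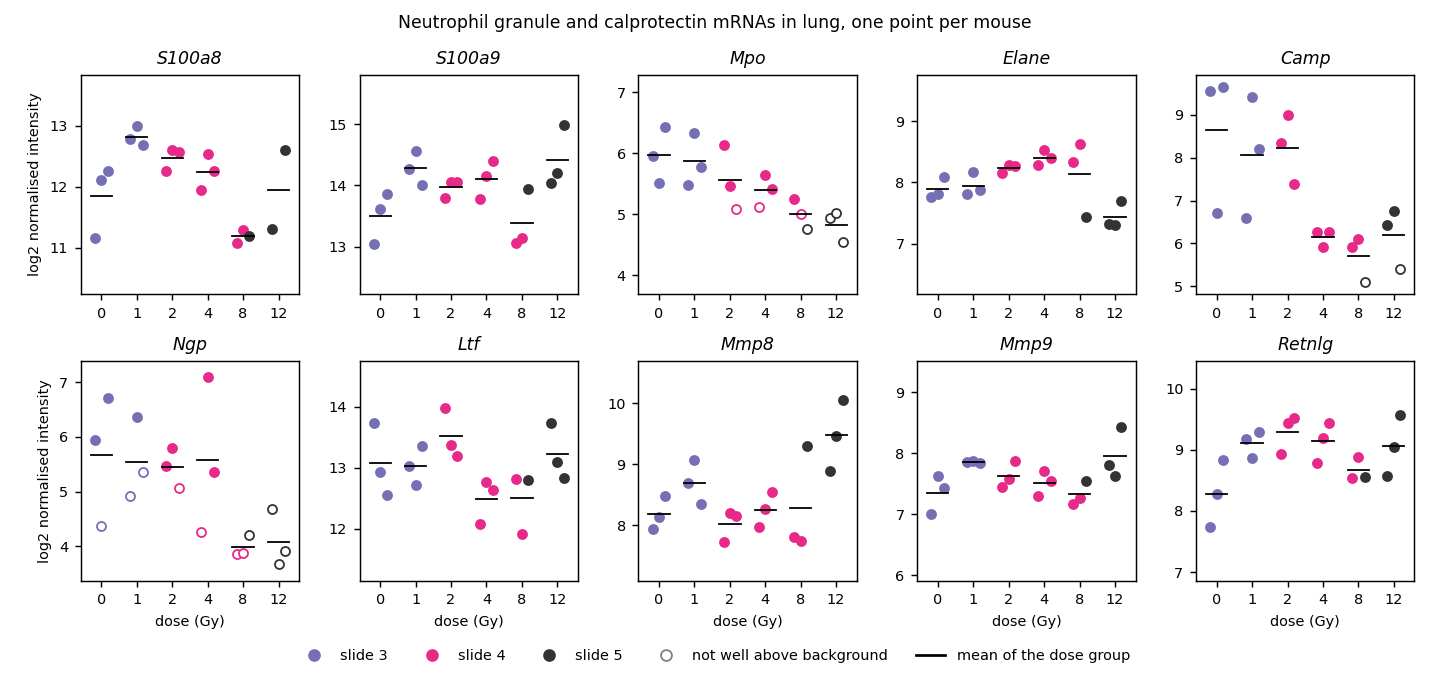
Log2 normalised intensity of the 10 genes in lung by dose, 1 point per mouse, with open points for spots not well above background and colour for the array slide. Horizontal lines are dose means. Mpo and Ngp are lowest at 8 and 12 Gy and Camp from 4 to 12 Gy, and the Mmp8 points of slide 5 lie between 8.89 and 10.06 at both doses it holds.

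Camp encodes the cathelicidin antimicrobial peptide CRAMP of the secondary granule (GRCm38.p6 chr9:109847377-109849456). In lung it measured 9.55, 6.71 and 9.64 in the 0 Gy mice, 6.60, 9.41 and 8.19 at 1 Gy and 8.34, 8.98 and 7.38 at 2 Gy. It then measured 6.27, 5.91 and 6.26 at 4 Gy, 5.91, 6.11 and 5.11 at 8 Gy and 6.42, 6.75 and 5.42 at 12 Gy, with the 8 Gy mouse 25 and the 12 Gy mouse 26 below background. Every array at 4 and 8 Gy lay under every array at 0, 1 and 2 Gy, while the 12 Gy mouse 16 (6.75) lay above the 0 Gy mouse 11 (6.71) and the 1 Gy mouse 2 (6.60).

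Against 0 Gy, Camp fell 7.58-fold at 8 Gy (log2 −2.92, SE 0.74, limma adjusted p = 0.035) and 5.40-fold at 12 Gy (log2 −2.43, limma adjusted p = 0.03), where 1.99% and 4.30% of all lung probes were called lower. At 4 Gy the difference was −2.49 on the log2 scale and was not called (limma adjusted p = 0.111). Its trend was −2.71 (SE 0.69, limma adjusted p = 0.0066). Within slide 4, on which 2, 4 and 8 Gy were scanned together, Camp was 2.09 lower on the log2 scale at 4 Gy than at 2 Gy and 2.22 lower at 8 Gy. The 12 Gy call was lost without the 0 Gy mouse 1 or 21 or the 12 Gy mouse 6 or 26 (limma adjusted p = 0.05 to 0.12), and the 8 Gy call without the 0 Gy mouse 1 or 21 or any 8 Gy mouse (limma adjusted p = 0.0634 to 0.153). The trend stayed called with each mouse left out in turn.

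Ngp, the neutrophilic granule protein of the secondary granule, is related to the cathelicidins and lies near Camp on chromosome 9 (chr9:110419808-110423012). Its lung levels were 5.94, 4.38 and 6.71 at 0 Gy, 4.93, 6.36 and 5.36 at 1 Gy, 5.47, 5.80 and 5.06 at 2 Gy and 4.26, 7.09 and 5.36 at 4 Gy. At 8 Gy they were 3.85, 3.88 and 4.20 and at 12 Gy 4.67, 3.67 and 3.92, none of these 6 being above background. The probe was above background on 7 of the 12 arrays up to 4 Gy, with the highest value in the 4 Gy mouse 14, whose Camp was at 5.91.

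The Ngp trend was −1.87 (SE 0.50, limma adjusted p = 0.00815). With the arrays at 8 and 12 Gy below background the size of this trend is loosely set. It was not called with a normexp offset of 50. Ngp was not called at a single dose. As fitted, its log2 difference from 0 Gy was −1.70 at 8 Gy (SE 0.63, limma adjusted p = 0.17) and −1.59 at 12 Gy (SE 0.63, limma adjusted p = 0.0842). Within slide 4 its mean was 1.58 lower on the log2 scale at 8 Gy than at 2 Gy, both arrays at 8 Gy being below background.

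Mpo encodes myeloperoxidase, the enzyme that forms hypochlorous acid and a marker of the promyelocyte (chr11:87793784-87804412). In lung it was at 5.96, 5.51 and 6.43 at 0 Gy, 5.49, 6.34 and 5.78 at 1 Gy, 6.14, 5.46 and 5.08 at 2 Gy, and 5.12, 5.64 and 5.41 at 4 Gy. It was at 5.26, 5.01 and 4.76 at 8 Gy and at 4.94, 5.02 and 4.54 at 12 Gy. The 12 Gy arrays were all below background and all lower than every 0 Gy array, and the order of the dose means ran down from 5.96 at 0 Gy through 5.87, 5.56, 5.39 and 5.01 to 4.83 at 12 Gy.

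Mpo was at least 1.67-fold lower at 12 Gy than at 0 Gy (limma adjusted p = 0.0143) and was not called at 8 Gy (log2 −0.96, limma adjusted p = 0.0898). Its trend was −1.14 (SE 0.23, limma adjusted p = 0.00108). With the 12 Gy arrays below background the size of this trend is loosely set. It was not called with a normexp offset of 50. Within slide 4 the 8 Gy mean was 0.42 lower on the log2 scale than the 2 Gy mean. The 12 Gy call was lost without the 0 Gy mouse 21 or the 12 Gy mouse 26.

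Modelling the slide changed the lung calls. With slide as a random block no member was called at a single dose, the 12 Gy differences being −2.30 for Camp (limma adjusted p = 0.215), −1.08 for Mpo (limma adjusted p = 0.143) and 1.06 for Mmp8 (limma adjusted p = 0.217), while the Camp, Mpo and Ngp trends stayed called at −2.68, −1.09 and −1.94 (limma adjusted p = 0.025, 0.00726 and 0.0255). With slide as a term none of the 3 trends was called, at −2.68 (SE 1.69), −0.63 (SE 0.54) and −2.63 (SE 1.24), with limma adjusted p of 0.864, 0.944 and 0.702.

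Lymphoid markers went down with the same doses in lung. The 7 B cell markers summed to a linear level of 16070 to 37340 at 0 Gy and 1277 to 1482 at 12 Gy, and the 7 T cell markers to 8295 to 33600 and 1214 to 1973, with 7 of 7 called lower in each list. Of all lung probes tested 4.30% were called lower at 12 Gy. Of 7 proliferation markers 5 were called lower, their sum being 3642 to 11580 at 0 Gy and 771.4 to 1551 at 12 Gy. The 5 monocyte markers summed to 148400 to 157300 and 281000 to 297400, with 0 called higher and 1 lower, and the 10 macrophage markers to 39780 to 49070 and 42610 to 73900, with 0 called. The 6 erythroid markers with a probe summed to 20340 to 22590 at 0 Gy and 12100 to 14720 at 12 Gy, with 2 of the 4 tested called lower and Rhag and Klf1 below background on all lung arrays. A linear sum follows its brightest genes. The median log2 change at 12 Gy was −2.28 over the 4 erythroid genes tested, 0.29 over the monocyte markers and 0.12 over the macrophage markers. None of the B cell, T cell, monocyte or macrophage markers stayed below background on all lung arrays. These lists were chosen with earlier results of these data known, and their part in the granule gene results was not tested.

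Mmp8 (chr9:7558429-7568486) was the member called higher in lung, where 3.03% of all probes were called higher at 12 Gy. It was at 7.94, 8.14 and 8.47 at 0 Gy, 8.70, 9.06 and 8.34 at 1 Gy, 7.73, 8.20 and 8.15 at 2 Gy and 7.97, 8.26 and 8.54 at 4 Gy. It was at 7.80, 7.74 and 9.29 at 8 Gy and at 8.89, 9.47 and 10.06 at 12 Gy. Every 12 Gy array lay above every 0 Gy array, and so did the array of the 8 Gy mouse 25, which shared slide 5 with them.

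The difference at 12 Gy was 1.29 on the log2 scale (2.44-fold, SE 0.37, limma adjusted p = 0.0232), and the trend of 0.95 was under the fold threshold (limma adjusted p = 0.0465), past which it moved without the 0 Gy mouse 21, the 1 Gy mouse 2 or 12 or the 8 Gy mouse 5 or 15. The 4 arrays of slide 5 ran from 8.89 to 10.06. Within that slide the 12 Gy mean was only 0.18 above the 8 Gy array, and within slide 4 the 8 Gy mean was 0.25 below the 2 Gy mean. With slide as a term of the model the Mmp8 trend was −0.16 (limma adjusted p = 0.999). The 12 Gy call was also lost without the 0 Gy mouse 1 or 11, or the 12 Gy mouse 16 or 26.

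Mmp9, gelatinase B of the tertiary granule (chr2:164940326-164955850), did not exceed 8.42 on any lung array, with dose means of 7.35 at 0 Gy, 7.33 at 8 Gy and 7.95 at 12 Gy. The 12 Gy difference of 0.60 was not called (limma adjusted p = 0.0544). Its other probe was dimmer and was not called at any dose or on the trend (−0.16, limma adjusted p = 0.692).

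S100a8 and S100a9 lie beside each other on chromosome 3 (chr3:90669071-90670034 and chr3:90692630-90695721). In lung S100a8 was at 11.16, 12.10 and 12.26 at 0 Gy, 12.78, 12.99 and 12.68 at 1 Gy, 12.27, 12.60 and 12.56 at 2 Gy and 11.94, 12.54 and 12.26 at 4 Gy. It was at 11.08, 11.29 and 11.19 at 8 Gy and at 11.30 and 12.60 at 12 Gy in the mice 6 and 26, the spot of mouse 16 being set to missing as an outlier. All 1 Gy arrays lay above all 0 Gy arrays, and all 8 Gy arrays lay under all arrays at 1, 2 and 4 Gy.

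S100a8 was not called at any dose, with differences from 0 Gy of 0.98 at 1 Gy and −0.66 at 8 Gy on the log2 scale, and its trend was −0.87 (SE 0.41, limma adjusted p = 0.115). The pattern was thus a higher mean at 1 Gy and a lower one at 8 Gy, within a test that passed neither. Within slide 3 the 1 Gy mean was 0.98 above the 0 Gy mean, and within slide 4 the 8 Gy mean was 1.29 below the 2 Gy mean.

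S100a9 in lung was at 13.04, 13.61 and 13.86 at 0 Gy, 14.27, 14.57 and 14.02 at 1 Gy, 13.80, 14.05 and 14.06 at 2 Gy and 13.78, 14.16 and 14.40 at 4 Gy. It was at 13.06, 13.14 and 13.94 at 8 Gy and 14.04, 14.21 and 15.00 at 12 Gy. As with S100a8, the 1 Gy arrays lay above those at 0 Gy, and the 8 Gy array on slide 5 was the highest of its dose. At 12 Gy S100a9 was 0.91 higher on the log2 scale than at 0 Gy, under the fold threshold (SE 0.29, limma adjusted p = 0.0375), and it was called without the 0 Gy mouse 21 or the 12 Gy mouse 6 (limma adjusted p = 0.0374 and 0.0277). Within slide 5 the 12 Gy mean was 0.47 above the 8 Gy array.

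Retnlg, a marker of mature mouse neutrophils (chr16:48872608-48874498), was at 7.74, 8.28 and 8.83 at 0 Gy in lung and between 8.55 and 9.57 on the 15 irradiated arrays. Its largest difference was 1.01 at 2 Gy (limma adjusted p = 0.215), and that at 12 Gy was 0.78 (limma adjusted p = 0.0646). No dose was called.

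Ltf (chr9:111019292-111042766) ran from 11.91 to 13.99 in lung with dose means between 12.49 and 13.52 and no called change. Its trend was −0.17 (SE 0.34, limma adjusted p = 0.737). Elane (chr10:79886312-79888216) ran from 7.77 to 8.64 on the lung arrays of slides 3 and 4 and from 7.30 to 7.70 on the 4 arrays of slide 5. Its trend was −0.43 (limma adjusted p = 0.197), and within slide 5 the 12 Gy mean and the 8 Gy array differed by 0.01.

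Between neighbouring irradiated doses (2 against 1, 4 against 2, 8 against 4 and 12 against 8 Gy) no member was called in lung, where 0.196% of all probes were called in 1 pair or more. The lowest adjusted p was that of S100a9 between 12 and 8 Gy (log2 1.04, limma adjusted p = 0.104). The step of Camp from 2 to 4 Gy was −2.09 (SE 0.74, limma adjusted p = 0.879), so that the dose at which the lung level went down was not resolved by these arrays.

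In liver, 1 of the 10 members was called at 1 dose or more, where 3.17% of all liver probes were. That gene was Camp, which was also the member called on the trend, against 1.14% of all probes called falling. The members' median trend was 0.02, beside 0.00 over all probes.

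**Figure D2:**
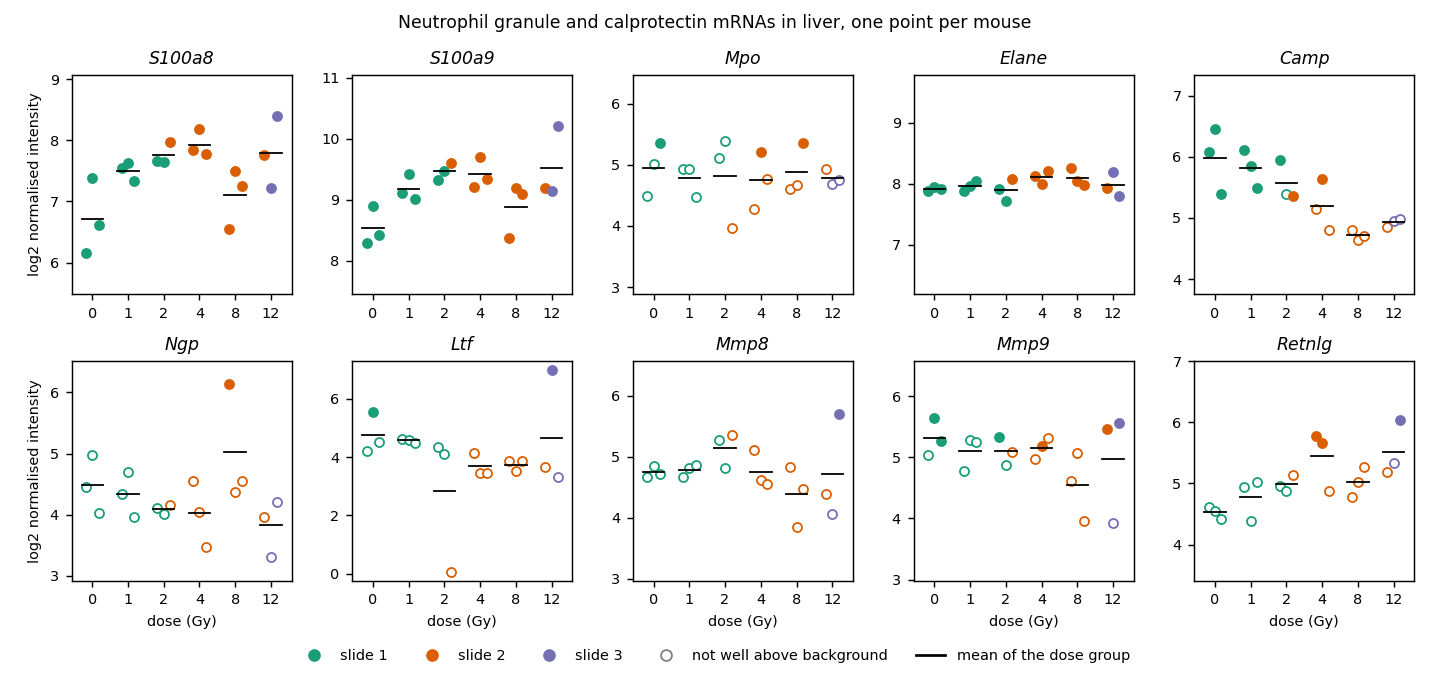
Log2 normalised intensity of the 10 genes in liver by dose, drawn as for lung. Camp falls below background at 8 and 12 Gy, S100a8 and S100a9 are lowest at 0 and 8 Gy, and Ltf, Mmp8, Mpo, Ngp and Retnlg lie at background on most arrays.

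Camp in liver was at 6.08, 6.46 and 5.38 at 0 Gy, 6.12, 5.86 and 5.50 at 1 Gy, 5.95, 5.39 and 5.36 at 2 Gy and 5.14, 5.64 and 4.80 at 4 Gy. It was at 4.80, 4.64 and 4.71 at 8 Gy and 4.85, 4.95 and 4.98 at 12 Gy. The number of arrays above background went from 3 of 3 at 0 and 1 Gy to 2 at 2 Gy, 1 at 4 Gy and 0 at 8 and 12 Gy, and no array at the highest doses overlapped with those at 0 Gy.

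As fitted, Camp was 2.39-fold lower at 8 Gy (limma adjusted p = 0.00884) and 2.06-fold lower at 12 Gy (limma adjusted p = 0.0258) than at 0 Gy. Of all probes 1.37% and 1.33% were called lower at these doses. With the arrays of both doses below background, the size of these differences is loosely set. The trend was −1.15 (SE 0.24, limma adjusted p = 0.0042). The 12 Gy call was lost without the 0 Gy mouse 1 or 11 or any 12 Gy mouse (limma adjusted p = 0.0582 to 0.13). With slide as a term of the model the trend was −0.88 and was not called (limma adjusted p = 0.385), and within slide 2 the 8 Gy mean was 0.64 below the 2 Gy array of mouse 23. With both tissues normalised together the trend was −1.58 (limma adjusted p = 0.0687). In the liver arrays the B cell markers summed to 762.1 to 1179 at 0 Gy and 197.8 to 255 at 12 Gy, with 4 of the 6 tested called lower and Blk below background on every array. The 7 T cell markers summed to 3365 to 3738 and 2311 to 2670, with 3 called lower, and the 7 proliferation markers to 860.5 to 2701 and 426.1 to 537, with 6 called lower. These lists were chosen with earlier results of these data known, and their part in the Camp result was not tested.

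S100a8 in liver was at 6.15, 7.38 and 6.62 at 0 Gy, 7.54, 7.62 and 7.34 at 1 Gy, 7.67, 7.64 and 7.97 at 2 Gy and 7.83, 8.19 and 7.77 at 4 Gy. It was at 6.55, 7.50 and 7.26 at 8 Gy and 7.77, 7.22 and 8.40 at 12 Gy. All arrays at 2 and 4 Gy lay above all arrays at 0 Gy, and those at 1, 8 and 12 Gy overlapped with them. The differences from 0 Gy were 0.78, 1.04, 1.21, 0.38 and 1.08 on the log2 scale from 1 to 12 Gy (SE 0.32), and none was called, the limma adjusted p being 0.0569 at 4 Gy and 0.0605 at 12 Gy. Without the 12 Gy mouse 16, S100a8 was called at 4 Gy (1.21, limma adjusted p = 0.0436) and at 12 Gy (1.37, limma adjusted p = 0.0279). It was also called at 1 or both of these doses without the 0 Gy mouse 11, the 8 Gy mouse 5 or the 12 Gy mouse 26. With each mouse left out in turn, the difference ran from 0.93 to 1.55 at 4 Gy and from 0.77 to 1.41 at 12 Gy.

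S100a9 in liver followed S100a8 closely. It was at 8.29, 8.90 and 8.43 at 0 Gy, 9.12, 9.43 and 9.01 at 1 Gy, 9.32, 9.47 and 9.61 at 2 Gy and 9.21, 9.71 and 9.34 at 4 Gy. It was at 8.37, 9.19 and 9.10 at 8 Gy and 9.20, 9.15 and 10.21 at 12 Gy. Every array at 1, 2, 4 and 12 Gy lay above every array at 0 Gy, with differences of 0.64 at 1 Gy, 0.93 at 2 Gy, 0.88 at 4 Gy and 0.98 at 12 Gy that were not called (SE 0.28, limma adjusted p = 0.0502 at 12 Gy). Without the 12 Gy mouse 16 its 12 Gy difference was 1.16 and was called (limma adjusted p = 0.0394). Neither calprotectin gene had a called trend in liver (0.39 for each, limma adjusted p = 0.567 for S100a8 and 0.462 for S100a9). Within slide 1 S100a8 was 0.78 higher at 1 Gy and 0.94 higher at 2 Gy than at 0 Gy on the log2 scale. The 4, 8 and 12 Gy arrays shared no slide with 0 Gy. Within slide 2, set against the 2 Gy array of mouse 23, S100a8 differed by −0.04 at 4 Gy, −0.87 at 8 Gy and −0.20 at 12 Gy. For S100a9 these values were −0.19, −0.72 and −0.41.

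Retnlg was above background in liver in the 4 Gy mice 4 (5.78) and 14 (5.67) and the 12 Gy mouse 26 (6.04), and on no array at 0 Gy. As fitted, it was 1.98-fold higher at 12 Gy than at 0 Gy (log2 0.99, limma adjusted p = 0.03), just under the fold threshold. It was called without the 12 Gy mouse 16 (1.08, limma adjusted p = 0.0435) or mouse 6 (1.15, limma adjusted p = 0.0339). Ngp was above background in liver in the 8 Gy mouse 5 alone (6.13) and Mmp8 in the 12 Gy mouse 26 alone (5.70). Mpo was above background in the 0 Gy mouse 21 (5.36), the 4 Gy mouse 14 (5.21) and the 8 Gy mouse 25 (5.36). Elane was bright on every liver array and ran from 7.71 to 8.26 with a trend of 0.09 (SE 0.11, limma adjusted p = 0.664).

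No member was called between neighbouring irradiated doses in liver, where 0.00521% of all probes were called in 1 pair or more. The lowest adjusted p among the members was 0.41.

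**Figure D3:**
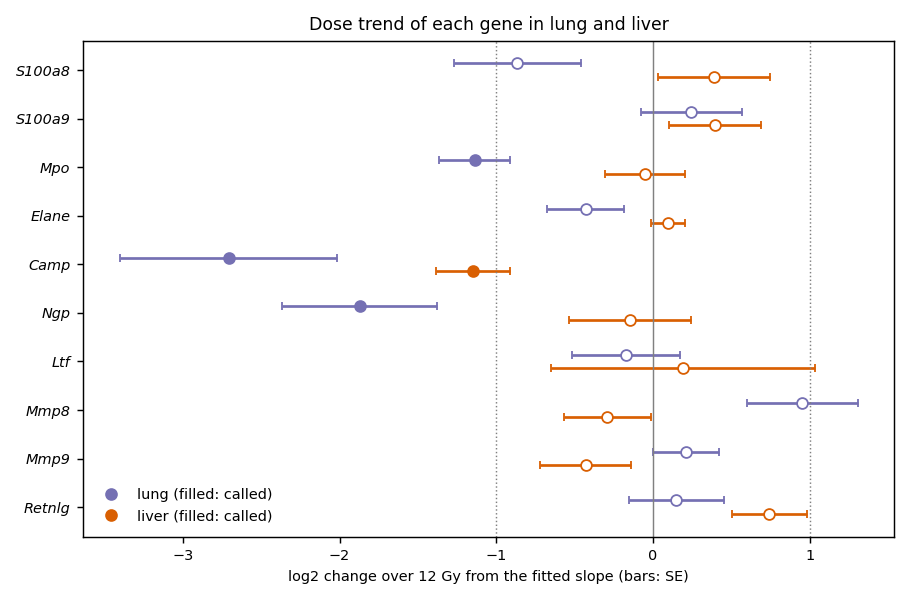
Fitted log2 change over 12 Gy of each gene in lung and liver, with bars for the SE and filled points for called trends. Camp is called in both tissues, Mpo and Ngp are called in lung, and the remaining points are open.

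The difference between the tissues was tested on all 36 arrays as liver trend minus lung trend. No member was called, where 7.24% of all probes were. The value was −1.37 for Mmp8 (limma adjusted p = 0.0824), 1.31 for S100a8 (limma adjusted p = 0.116), 1.51 for Ngp (limma adjusted p = 0.133), 0.85 for Mpo (limma adjusted p = 0.171) and 0.98 for Camp (limma adjusted p = 0.421). The Mpo and Ngp trends that were called in lung were not shown to differ from those in liver, where neither probe could be measured on most arrays. In the same joint fit the lung Mpo trend was −0.95 (limma adjusted p = 0.0154), under the fold threshold and so not called. The liver Retnlg trend in that fit was called at 1.07 (limma adjusted p = 0.0414), with its 0 Gy arrays below background. The liver Camp trend in that fit was not called (−1.58, limma adjusted p = 0.0687).

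The members did not move as 1 group over the lung arrays. As a description over 18 arrays that share dose and slide, Pearson's r was 0.82 between Camp and Mpo, 0.78 between Ngp and Mpo and 0.65 between Camp and Ngp. It was 0.74 between S100a8 and S100a9 over 17 arrays, 0.88 between S100a9 and Mmp9 and 0.76 between S100a9 and Mmp8, and −0.12 between S100a9 and Camp. Elane had its highest r with a member at 0.34 (Ngp) and Ltf at 0.39 (Camp). In liver S100a8 and S100a9 reached 0.95 and each reached 0.64 with Retnlg, and the pairs among Camp, Ngp and Mpo lay between −0.09 and 0.12, most of those arrays being below background.

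Among 16411 genes compared in lung, those most like S100a8 outside the members were Pigbos1 (r 0.93), Ssu72 (0.90), Il1b (0.89), Cox20 (0.86) and Fpr2 (0.82), over 17 arrays. Il1b encodes interleukin 1 beta and Fpr2 a formyl peptide receptor of neutrophils. Pigbos1, Ssu72 and Cox20 are on none of the neutrophil lists read below. Those most like Mpo were Rgs2 (0.85), Elf4 (0.85), Ptpn5 (0.84), Cass4 (0.83) and Krt17 (0.83), and those most like Ngp were Elf4 (0.81), Tnfsf10 (0.81), Lrrn3 (0.80), Ifi208 (0.79) and Gbp4 (0.76), over 18 arrays. Elf4, an ETS family transcription factor, was common to the Mpo and Ngp lists. In liver S100a8 was most like S100a9, and outside the members Gemin8 (0.78), Mipol1 (0.75), Zfp820 (0.73), Slc22a27 (0.71) and Avl9 (0.71) followed.

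Other neutrophil genes, in 5 lists, were read for the same comparisons. Slide follows dose in their trends too, and these genes were not run with slide in the model. Of all probes tested, 4.35% in lung and 1.14% in liver were called falling on the trend. The share called rising on the trend was not computed. Of the primary granule and progenitor genes Prtn3, Ctsg, Ms4a3, Cebpe and Gfi1, Ms4a3 was below background on all arrays of both tissues. In lung 2 of the 4 tested were called falling on the trend, Gfi1 (−1.32, limma adjusted p = 0.0148), a zinc finger repressor needed to form neutrophils, and Ctsg (−1.05, limma adjusted p = 0.0138), cathepsin G. The list's median trend was −0.86 in lung, beside 0.08 over all probes. In liver 1 of 4 was called falling, Prtn3, the serine protease proteinase 3, from 5.90 at 0 Gy to below background on all 12 Gy arrays, at least 2.46-fold lower (limma adjusted p = 0.0023).

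Of 12 secondary and tertiary granule and oxidase genes, 11 were tested in each tissue and Mmp25 was below background throughout. In lung 1 was called falling and 0 rising on the trend, with a list median of −0.32. That gene was Ncf4 (−1.26, limma adjusted p = 0.00123), the p40phox subunit of the NADPH oxidase, which other phagocytes and B cells also express. In liver 1 was called falling and 1 rising, with a median of −0.46. Chil3, a chitinase-like protein shared with macrophages, fell from 6.42 at 0 Gy to below background at 12 Gy, at least 4.31-fold (limma adjusted p = 6.5e-05). Lcn2, lipocalin 2, which hepatocytes also make in the acute phase, rose by 1.21 on the trend (SE 0.28, limma adjusted p = 0.01).

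Of 19 neutrophil surface and cytosol genes with a probe, all were tested in lung and 15 in liver, where Cxcr2, Clec4e, Stfa1 and Stfa3 were below background on every array. In lung 3 were called rising on the trend, the stefin A cysteine protease inhibitors Stfa2l1 (7.05 at 0 Gy and 9.43 at 12 Gy, trend 1.40, limma adjusted p = 0.016), Stfa1 (6.45 and 8.56, trend 1.40, limma adjusted p = 0.0113) and Stfa2 (7.02 and 9.11, trend 1.34, limma adjusted p = 0.00532). These paralogues are near-identical in sequence and their probes cannot be taken as 3 independent readings. Without a share of all probes called rising, this count has nothing to be set against. Another 2 were called falling, among them Ly6g (−1.19, limma adjusted p = 0.0445), the antigen that defines mouse neutrophils. The list's median trend was −0.26 in lung and 0.21 in liver, where 2 were called falling, among them Il1b (−1.11, limma adjusted p = 0.0159), and 0 were called rising. The defining receptor Cxcr2 was at 5.72 at 0 Gy and 6.35 at 12 Gy in lung and was not called (limma adjusted p = 0.103).

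**Figure D4:**
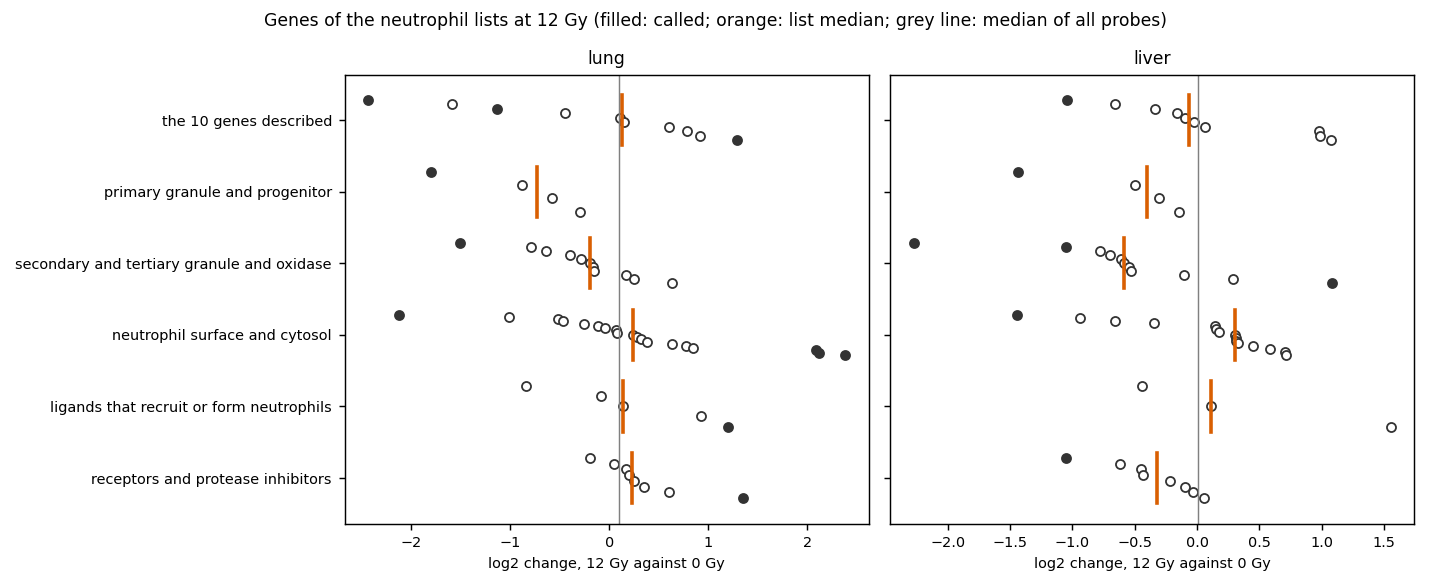
Log2 change at 12 Gy against 0 Gy of the 10 genes and of the genes of each neutrophil list in lung and liver, 1 point per gene, filled where called, with the list median in orange and the median of all probes as a grey line. In lung the 3 stefin A genes stand above 2 while Gfi1 and Ncf4 stand below −1.5.

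Of the 6 ligands that recruit or form neutrophils, 5 were tested in lung and 3 in liver. In lung the epithelial chemokine Cxcl5 was 1.20 higher on the log2 scale at 12 Gy (SE 0.23, limma adjusted p = 0.0024) with a trend of 0.41 that was not called (limma adjusted p = 0.421), and the platelet chemokine precursor Ppbp was called falling (−1.05, limma adjusted p = 0.00796). In liver Cxcl1 was called rising (1.34, limma adjusted p = 0.0464), from a mean of 10.19 at 0 Gy to 11.74 at 12 Gy. Of the 8 receptors of calprotectin and cathelicidin and protease inhibitors, 1 was called in each tissue at 12 Gy, where 3.03% of all lung probes were called higher and 1.33% of all liver probes lower. These were Timp1, an inhibitor of Mmp8 and Mmp9, higher in lung (1.35, limma adjusted p = 0.00117), and Serpinb1a, an inhibitor of Elane, lower in liver (−1.05, limma adjusted p = 0.03). The lung comparisons at 12 Gy are those in which dose and slide cannot be told apart.

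miR-223-3p, a miRNA of the myeloid lineage that is abundant in neutrophils, was measured on the separate miRNA arrays. It lies on chrX:96242884-96242905, plus strand, in GRCm38.p6, and its mature RefSeq sequence is shown with the seed, bases 2 to 8, in capitals.
mmu-miR-223-3p: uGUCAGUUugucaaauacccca
In lung it was at 12.70, 12.45 and 12.29 at 0 Gy, 12.20, 12.32 and 12.15 at 1 Gy, 12.02, 12.06 and 12.16 at 2 Gy and 11.94, 11.87 and 12.06 at 4 Gy. It was at 11.61, 11.64 and 11.49 at 8 Gy and 11.60, 11.64 and 11.99 at 12 Gy. Every array from 2 to 12 Gy lay under every 0 Gy array.

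On adjusted p alone, without the fold threshold, the lung miR-223-3p trend passed at −0.73 (1.66-fold, SE 0.13, limma adjusted p = 0.00106), where 16.7% of the 762 miRNA probes tested did. At 8 Gy the level was 1.86-fold lower than at 0 Gy (limma adjusted p = 7.3e-05). With slide as a random block the trend was −0.53 (limma adjusted p = 0.155) and with slide as a term −0.34 (limma adjusted p = 0.594), the 0 and 1 Gy lung samples sharing no slide with the other lung samples.

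In liver miR-223-3p was at 9.03, 8.95 and 8.98 at 0 Gy, at 8.36, 8.45 and 8.76 at 8 Gy and at 8.44, 8.37 and 8.44 at 12 Gy, so that both of these doses lay under all 0 Gy arrays. The trend passed at −0.55 (SE 0.08, limma adjusted p = 0.000105), where 14.4% of the 390 miRNA probes tested did, and with slide as a term it was −0.50 (limma adjusted p = 0.0343). Slides follow dose here too, and none held liver samples at 0 Gy together with a dose above 2 Gy. A second probe gave −0.54 in liver and −0.83 in lung. miR-223-5p was below background on every array.

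**Figure D5:**
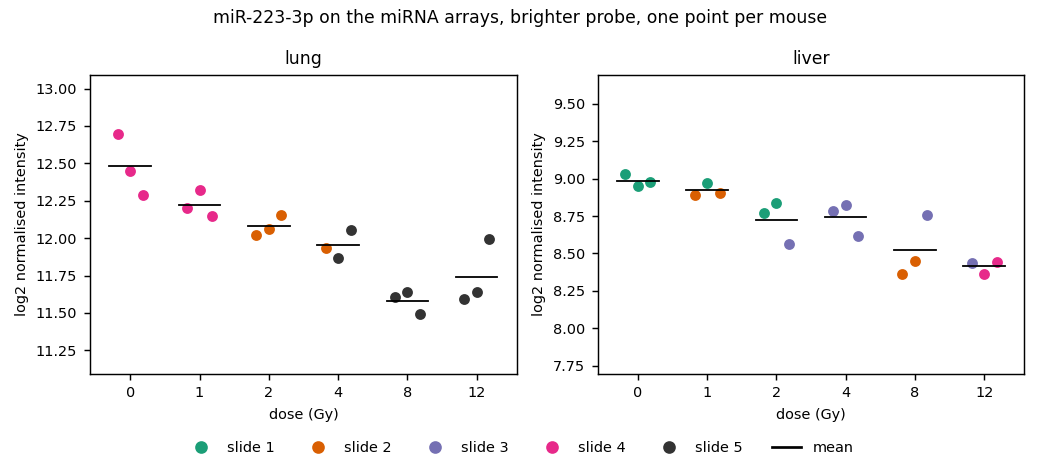
Log2 normalised intensity of miR-223-3p on the miRNA arrays of liver and lung by dose, 1 point per mouse, coloured by slide. Levels are highest at 0 Gy and lowest at 8 and 12 Gy in both tissues. The slides follow dose in both tissues, and no slide holds 0 Gy arrays with lung doses above 1 Gy or liver doses above 2 Gy.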

How the data were processed

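RNA of 18 liver and 18 lung samples was measured on 36 mRNA and 36 miRNA arrays. The authors deposited the output of Agilent Feature Extraction 11.5.1.1, whose median spot and background values are linear intensities without normalisation between arrays, and a table of series values, also linear intensity, which follow the processed signal scaled by 1 constant per array. The poly(A) RNA was amplified before labelling, per the labels, so that levels depend on how evenly transcripts amplified.

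The software was limma 3.58.1 under R 4.3.3, with statmod 1.5.0 and the data.table package at version 1.17.8. Median spot intensities were corrected with normexp (offset 0), control spots were dropped, outlier spots were set to missing, arrays of a tissue were quantile-normalised, and log2 values were averaged per probe. The tissue contrasts used all 36 arrays normalised together. Arrays on which a share of 0.5 or more of a probe's spots was well above background count as measured, and probes measured on 1 or more arrays were tested (38362 probes in liver, 43979 in lung and 47376 in both). Limma models had 6 dose groups or a slope, and 12 tissue by dose groups. A gene not above background in 1 of 2 groups has a lower limit on the fold, in which a dim array enters at its lowest measured level, or at the probe's value where that is higher. The limit holds for the normexp offset of 0 alone, and where it equals the fitted fold it sets no limit. It is a difference of means and takes no account of the spread between mice. The number of arrays limits precision. The code was tested on simulated data.

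RefSeq accessions of GRCm38.p6 named 61.1% of the probes, gave gene positions and supplied the sequences. The members and gene lists were chosen with earlier results of these data known. Named are all members, at most 4 called genes and the defining gene of each list (a gene selected by this rule is not reported here), and the 5 genes most correlated with S100a8, Ngp and Mpo among probes above background on at least 9 of 18 arrays. Alternatives covered scaling, background offset, filter, outlier spots, slide, probe choice, mouse number as a block and each mouse left out. Consensus correlations for the random blocks came from every 8th probe.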

Additional observations from a re-analysis of the deposited data

How the results depend on the processing

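The number of arrays and the signal over background limited most members in liver, and slide follows dose in both tissues. In liver, the count of members called at 1 dose or more was 1 and became 0 with a normexp offset of 50 or with slide as a term, and 2 under a stricter filter (S100a8 and Camp), with 1 to 4 when a mouse was left out. It was 4 without the 12 Gy mouse 16 and 2 without the 0 Gy mouse 11, the 4 Gy mouse 24, the 8 Gy mouse 5 or the 12 Gy mouse 6 or 26. The liver trend count of 1 became 0 with the offset of 50 or slide as a term, and the neighbouring-dose count stayed 0 throughout. With both tissues normalised together the called liver trend was that of Retnlg, rising, and not that of Camp. In lung, the count at 1 dose or more was 3 and became 0 with slide as a random block, with 1 to 5 when a mouse was left out (1 without the 0 Gy mouse 1 or the 12 Gy mouse 26, 5 without the 12 Gy mouse 6). The lung trend count of 3 became 1 with the offset of 50 (Camp) and 0 with slide as a term, with 3 to 4 when a mouse was left out. The neighbouring-dose count in lung of 0 became 1 (S100a9) with both tissues normalised together, and 3 (S100a9, Elane and Mmp8) without the 8 Gy mouse 25. For members that differed between tissues in trend, the count of 0 became 1 (Mpo) with 75th percentile scaling or the deposited series values, and 0 to 1 when a mouse was left out (Mmp8 without the liver of the 12 Gy mouse 26 or the lung of the 8 Gy mouse 5 or 15, S100a8 without the lung of the 0 Gy mouse 1 or the 12 Gy mouse 26). The lung miR-223-3p trend of −0.73 was −0.53 with slide as a random block and −0.34 with slide as a term, and −0.89 to −0.65 when a mouse was left out. The lung Mmp8 trend turned to −0.16 with slide as a term. Apart from the fits without a mouse, single-gene values kept their direction and state, called or not called, in 189 cases. They lost the call in 23, gained it in 3 and turned in that 1. The 189 include values that were not called in the main fit, and the tissue differences at 0 Gy, so they do not count dose calls that held. The offset of 50 compresses low values by construction. The cause of the other changes was not tested. Slide as a term could not be fitted for lung doses above 1 Gy against 0 Gy or for the tissues at 0 Gy. The genes outside the members were not run under the alternatives.

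The liver and lung arrays carry the same mouse numbers, and with 3 animals per dose same-numbered samples may come from 1 animal. Same-numbered arrays deviated from their group means with a median correlation of 0.002 (−0.07 to 0.10, 0 of 18 mouse numbers above 0.1). With mouse number as a replicate block the count between the unirradiated tissues was 6, as without it, and that for the trend difference was 0, as without it.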
